A study of Ovis aries with 40 samples.

Results

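The comparison described here was between Texel and Ujumqin fetuses at 135 d of gestation, close to term, and it was made on longissimus dorsi, the long muscle of the back. It used the 3 Texel arrays of that day (T135) and the 3 Ujumqin arrays (U135), which were 6 of the 40 arrays of the series, and its members were the annotated autosomal genes of the array: 676 genes with 1078 probes that could be tested, out of 978 genes named in the scanner files. Texel is a lean, heavily muscled breed and Ujumqin a breed of lower muscle mass and more fat. All 6 fetuses were purebred, came from oestrus-synchronised and artificially inseminated ewes and were taken by caesarean section, with no treatment of the fetus. The T135 fetuses were male, female and male in the order of their replicate numbers, and the 3 U135 fetuses were all female, so breed and sex were partly confounded. The sample was whole muscle, so that more cells of a type and more RNA per cell cannot be told apart.

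At this age the fetal muscle has most of its fibres and grows mainly by enlarging them, while satellite cells go on dividing beside the fibres. The tissue also holds vessels, connective tissue, nerves and leukocytes. Interferons, the cytokines of antiviral defence, bind receptors on most cells, and signalling from these receptors turns on a shared set of genes, the interferon-stimulated genes. ISG15 encodes a ubiquitin-like protein, MX1 and MX2 encode dynamin-like GTPases that block viruses, and RTP4 encodes a transporter protein of the receptor-chaperone family. OAS1 and EIF2AK2 encode sensors of double-stranded RNA.

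The array read each gene with 60-base probes, and several genes carried a pair of them. The probes on which the comparison turned are printed 5′ to 3′ as given by the scanner files, in lower case. Capitals mark the longest run that a probe shared with the other probe of its gene. For RTP4 this run was 59 of 60 bases, so that the pair read 1 stretch of the transcript and was not a second measurement. The 4 GNLY probes formed 2 overlapping pairs, and the SLC2A5 pair overlapped by 20 bases. The last sequence is that of the probe with the smallest p, which reads an expressed sequence tag (EST) with no gene name in the files.
ISG15: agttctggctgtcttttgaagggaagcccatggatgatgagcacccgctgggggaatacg
MX1: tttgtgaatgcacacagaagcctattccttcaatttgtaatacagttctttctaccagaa
MX2: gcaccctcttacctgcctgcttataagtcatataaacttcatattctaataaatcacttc
RTP4, probe A_70_P030131: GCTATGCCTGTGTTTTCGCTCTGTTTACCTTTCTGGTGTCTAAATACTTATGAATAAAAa
RTP4, probe A_70_P030132: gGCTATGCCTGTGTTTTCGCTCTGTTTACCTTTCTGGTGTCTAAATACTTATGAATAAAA
GNLY, probe A_70_P050991: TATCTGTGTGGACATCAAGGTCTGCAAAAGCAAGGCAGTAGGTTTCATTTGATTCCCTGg
GNLY, probe A_70_P024302: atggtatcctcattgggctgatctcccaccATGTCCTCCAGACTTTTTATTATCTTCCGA
SLC2A5, probe A_70_P051036: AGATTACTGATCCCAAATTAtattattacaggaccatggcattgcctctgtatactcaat
SLC2A5, probe A_70_P051037: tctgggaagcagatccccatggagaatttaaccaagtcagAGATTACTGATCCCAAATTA
EST, probe A_70_P057056: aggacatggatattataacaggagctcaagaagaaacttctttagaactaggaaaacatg

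Between 81.3% and 85.9% of the spots were well above background on the 6 arrays, and no spot was saturated. T135 replicate 1 had the lowest share and lay on another slide than the other 5 arrays, so breed was compared within a slide by leaving that array out. T135 replicate 3 stood slightly apart: it correlated with the other arrays at 0.972 to 0.976 across probes, against 0.980 to 0.988 among the other 5. The signals of XIST, which is transcribed from the inactive X chromosome, and of the Y-linked USP9Y matched the labelled sex of all 6 fetuses. Defining muscle genes were bright in both breeds. TNNC2, the fast troponin C, read 18.91 to 18.99 on all 6 arrays (normalised log2 signal, the scale of all levels given here), MYL11, the fast myosin light chain, 18.49 to 18.91, and the difference T135 minus U135 was 0.05 for TNNC2 and -0.04 for MYL11.

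In all, 302 of 14385 probes (2.1%) passed an unadjusted p under 0.05 with at least a 2-fold difference in limma. The methods of the study add a false discovery rate under 0.4 to these limits, and with that clause 45 probes (0.313%) and 3 annotated autosomal genes (0.444%) passed, RTP4, MX2 and RAB28. Of the 302 probes, 155 (1.08% of those tested) were higher in T135 and 147 (1.02%) were lower, and 871 probes (6.05%) passed p under 0.05 alone. After Benjamini-Hochberg adjustment over all probes 4 (0.0278%) passed. Among the annotated autosomal genes, with the brightest probe taken for each, 20 of 676 (2.96%) passed the unadjusted threshold, 12 higher (1.78%) and 8 lower (1.18%) in T135, and none passed after adjustment, while 51 passed p under 0.05 alone. The calls of single genes below are therefore unadjusted and looser than those of the study methods, and the p of a call is limma's. With 3 fetuses a breed an exact two-sided permutation test cannot go below 0.1. Between the breeds 970 probes did not overlap upwards (6.74%) and 806 downwards (5.6%), and of the annotated autosomal genes 40 (5.92%) and 41 (6.07%). Of the 302 called probes, 145 were well above background on all 6 arrays and 55 on none of them.

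**Figure D1:**
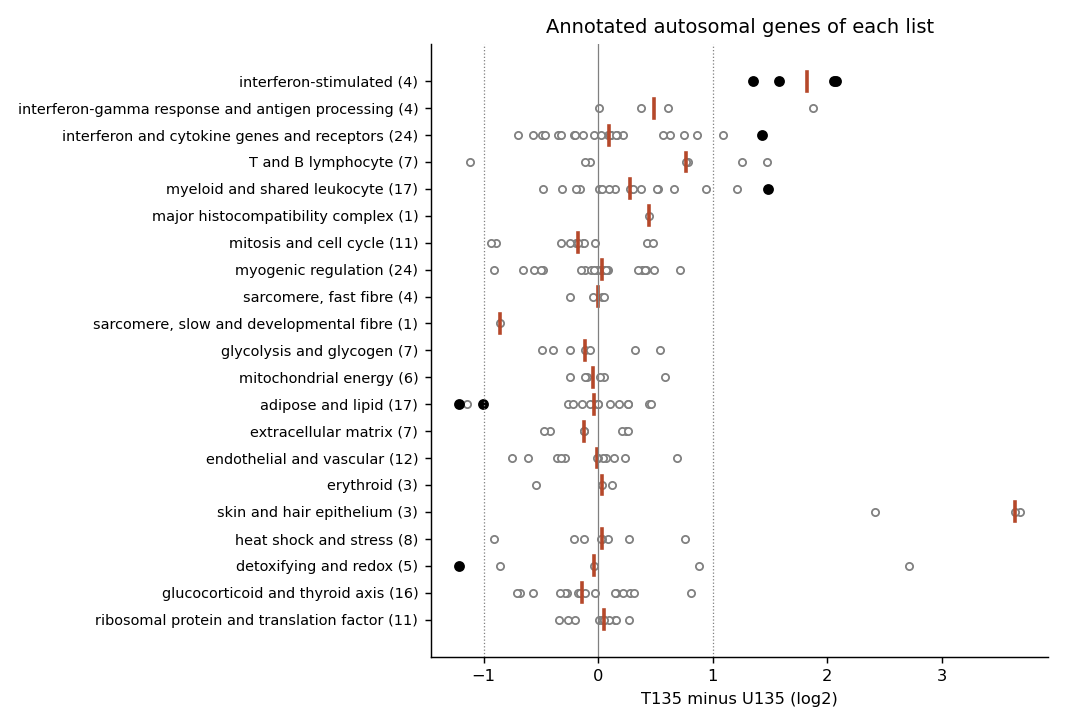
Difference T135 minus U135 (log2, x axis) of every annotated autosomal gene tested in each gene list (y axis, number of genes in parentheses). Filled points passed p under 0.05 with a 2-fold difference, open points did not, the bars are list medians and the dotted lines mark a 2-fold difference. All 4 interferon-stimulated genes lie to the right of the 2-fold line, and most other lists are centred near 0.

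The interferon-stimulated genes were higher in T135. The list fixed for this group had 4 genes that could be tested, ISG15, RTP4, MX1 and MX2, and 4 of 4 passed the unadjusted threshold upwards, against 1.78% of all annotated autosomal genes. Their median difference was 1.82 on the log2 scale, against 0.01 over the 676 genes. ISG15, RTP4 and MX2 had already been named by the study for their differences on these same arrays. The list was chosen with earlier results of these data known, so 4 of 4 is a description and not an independent test. ISG15, listed as ISG17 in the files, read 13.11, 12.19 and 11.78 in the T135 fetuses and 9.90, 10.07 and 10.86 in the U135 fetuses. Every T135 fetus was above every U135 fetus, and the mean difference of 2.08 ± 0.41 (SE, n = 3 per breed) was a 4.23-fold higher signal (adjusted p = 0.425). RTP4 read 12.11, 10.86 and 11.61 in T135 and 8.94, 9.68 and 9.77 in U135, a difference of 2.06 ± 0.38 (adjusted p = 0.382), again without overlap.

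The GTPase genes were higher as well. MX1 read 13.24, 12.14 and 12.13 in T135 and 10.83 to 11.63 in U135, a 2.55-fold difference. MX2 read 10.28, 10.59 and 10.74 in T135 and 8.84, 8.67 and 9.36 in U135, a 2.98-fold difference (adjusted p = 0.216). The order of the fetuses was not the same for the genes: T135 replicate 1 was the highest for ISG15, RTP4 and MX1 and the lowest of the 3 for MX2. Without that array, the only one of the 6 on its slide, 3 of the 4 genes passed, MX1 falling to 0.98, and without T135 replicate 3 all 4 passed. With slide as a block over the 31 fetal arrays 0 of the 4 passed, at a median difference of 1.70. The female T135 fetus alone was above all 3 U135 females for each of the 4 genes, where 44.7% of annotated autosomal genes had that fetus outside the U135 range in the direction of the difference. It was above by 1.91 over their mean for ISG15, 1.40 for RTP4, 0.99 for MX1 and 1.63 for MX2. At the other stages, which give 25 fetuses, the difference male minus female was -0.28 for MX2 to -0.58 for RTP4, and 8 of 14385 probes (0.0556%) passed the adjusted threshold for sex, none of them of these genes.

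Further interferon-stimulated genes bear names only in the supplementary tables of the study, through sequence homology. OAS1 (7.02 to 8.30 in T135 and 5.41 to 6.19 in U135) and XAF1, a pro-apoptotic partner of XIAP (9.32 to 10.32 and 8.49 to 8.77), were named for their difference on these same arrays, so that their 3.41-fold and 2.40-fold differences are a description. EIF2AK2 was named for another stage. It read 8.03, 6.99 and 6.90 in T135 and 6.14, 6.35 and 6.26 in U135, a difference of 1.06 ± 0.32 that fell to 0.70 without T135 replicate 1. GBP2, an interferon-induced guanylate-binding protein also named for another stage, was 2.82-fold higher on one probe, with overlap between the breeds. Of the 23 alternatives its probe A_70_P066386 passed in 14 and its probe A_70_P066921 in 6. GBP4, a further guanylate-binding protein named for another stage, ranged from -0.54 to 0.36 over the alternatives and passed in 0.

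**Figure D2:**
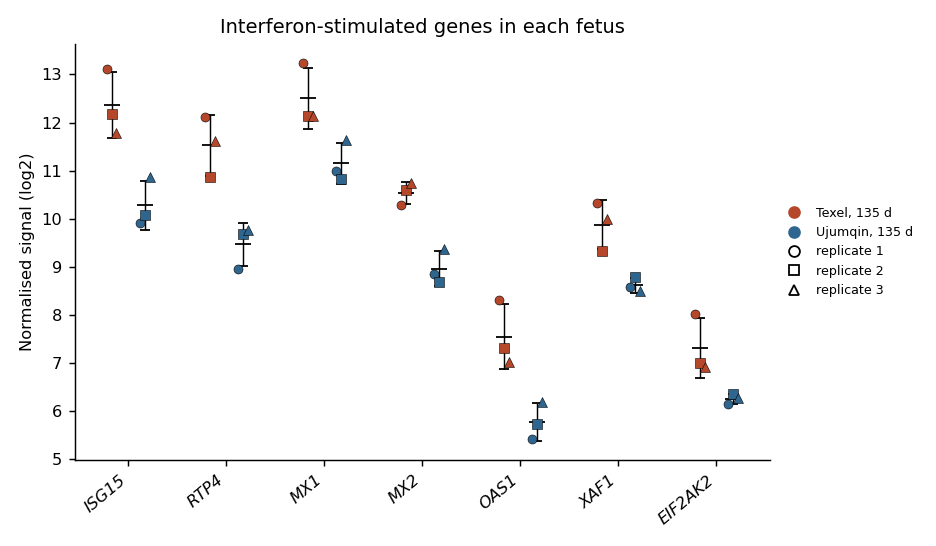
Normalised signal (log2, y axis) of 7 interferon-stimulated genes in each fetus of 135 d, Texel in red and Ujumqin in blue, with the marker giving the replicate number. Horizontal bars are means and error bars SD (n = 3). The 3 Texel fetuses lie above the 3 Ujumqin fetuses for every gene shown.

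Few genes of interferons and their receptors were called. In the list of interferon and cytokine genes and receptors 1 of 24 genes passed upwards, against 1.78% of all annotated autosomal genes, and none downwards. The p under 0.05 alone was met by 2 upwards and 1 downwards, and the median difference was 0.09. The single call was IL2, a growth factor of T cells, whose probe was not well above background on any of the 6 arrays. The receptor subunits IFNAR1 and IFNAR2 differed by -0.33 and 0.22, neither past the threshold. IFN1, read by a probe for an interferon-alpha and outside the list, passed the threshold downwards but was likewise not above background on any array. The pair of IFNG probes disagreed. One (A_70_P039611) read 6.11, 2.39 and 6.69 in T135 and 2.41 to 2.55 in U135, at least 2.96-fold higher with 2 of 3 T135 arrays and no U135 array above background, and the other, which shared no run over 5 bases with it, differed by -0.03. In the female T135 fetus the first probe was at the U135 level, and its call was kept in 1 of the 6 fits that left out 1 array.

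Genes of interferon-gamma response and antigen processing gave no call among 4 (p under 0.05 alone: 0), with all 4 differences above 0 and a median of 0.49. CXCL10, the chemokine that interferon-gamma induces, read 9.34, 7.58 and 12.18 in T135 and 7.18, 8.34 and 7.95 in U135 (adjusted p = 0.858). B2M, the light chain of class I histocompatibility molecules, read 16.10, 16.34 and 17.33 against 15.91 to 16.04 (adjusted p = 0.858). For both genes T135 replicate 3 was the highest array. IRF1 and PSMB8 differed by 0.37 and 0.01.

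Several leukocyte genes were highest in T135 replicate 3. In the T and B lymphocyte list none of 7 genes passed (p under 0.05 alone: 0), 4 of 7 differences were above 0, and the median difference was 0.76. The summed signal of the list was 12.36 in T135 replicate 3 and 9.57 to 10.28 in the other 5 fetuses. CD3E, a chain of the T cell receptor complex, read 9.21, 7.94 and 11.39 in T135 and 7.96, 8.59 and 8.22 in U135. CD3D differed by 1.48 with the same fetus highest. The breeds overlapped for both genes. Without that fetus the list median was 0.11 and 1 gene was called lower in T135, as were 17 of all 676 annotated autosomal genes. Without T135 replicate 2 the list median was 1.27 and 2 genes were called higher, as were 24 of all 676. CD4 was not above background on any array, CD247, the zeta chain, differed by -0.12, and CTLA4, an inhibitory receptor of T cells, by -1.12 with 1 of the 6 arrays above background.

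Granulysin (GNLY), an antimicrobial protein of cytotoxic T and natural killer cells, had the highest difference among named probes that were well above background on all 6 arrays. The probe A_70_P050991 read 8.11, 8.71 and 12.01 in T135 and 5.52, 5.77 and 6.23 in U135, a difference of 3.77 ± 0.97 (adjusted p = 0.673) without overlap. It stayed at 2.56 without T135 replicate 3. Its overlapping partner gave 3.64. The probe A_70_P024302 of the other pair read 8.46, 8.82 and 8.92 in T135 and 8.05 to 8.35 in U135 and differed by 0.48. It represented the gene by its mean signal over the arrays, so by that rule alone GNLY was not among the 20 called genes. Whether the 2 pairs read the same strand was not tested, so the smaller difference cannot be set against the larger. CD8A, RGS1, TCF7, LPXN and the T cell receptor alpha chain (TRA) were named for their differences on these arrays. RGS1, a brake of G-protein signalling in lymphocytes, read 8.64, 7.63 and 9.31 in T135 against 4.42, 5.70 and 5.04 in U135, and TRA 5.33, 5.62 and 7.73 against 2.84, 4.54 and 2.93. CD8A, the co-receptor of cytotoxic T cells, was at least 2.71-fold higher, since no U135 array was above background.

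In the myeloid and shared leukocyte list 1 of 17 genes passed upwards, against 1.78% of all annotated autosomal genes, and none downwards, with a median of 0.28. The call was FCGR2B, the inhibitory receptor for immunoglobulin G, at 7.18, 7.10 and 8.52 in T135 and 5.95, 6.33 and 6.06 in U135, a 2.80-fold difference that was 1.03 on the log2 scale without T135 replicate 3. TYROBP, FCER1G and CD14, which mark myeloid cells at large, differed by 0.01, 0.28 and 0.31. LYZ read 8.78, 7.38 and 10.91 against 7.62 to 7.95, again led by replicate 3. CLEC4E, a macrophage lectin outside the list, was 2.39-fold higher with overlap and kept its call in 2 of the 6 fits that left out 1 array. TNFSF13B, a survival factor for B cells, was at least 2.15-fold higher, with 2 of 3 T135 arrays and no U135 array above background, and also kept its call in 2 of these 6 fits. The mast cell proteinase MCP-3 was higher on both of its probes, which shared no run over 5 bases: A_70_P012516 read 9.28, 7.92 and 9.24 in T135 and 7.23 to 7.63 in U135, and the other probe differed by 1.69. For MCP-3 the female T135 fetus was only 0.49 above the U135 mean.

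Hair keratins marked T135 replicate 3 as well. KRT25 read 12.06 in that fetus and 1.80 to 3.25 in the other 5, KRT27 10.58 against 1.74 to 3.89, and KRT35 8.22 against 1.49 to 1.91, and on the other 5 arrays none of them was above background. These keratins belong to the hair follicle sheath and shaft. None of the 3 passed the threshold (p under 0.05 alone: 0). The summed keratin signal was 12.58 in T135 replicate 3 and 3.35 to 4.81 elsewhere. Erythroid signal did not follow this fetus alone, with HBB at 17.31, 15.09 and 17.78 in T135 and 16.48 to 17.03 in U135. The part of skin or leukocyte RNA in the leukocyte differences was not tested. Of the interferon-stimulated genes, MX2 was highest in T135 replicate 3, and ISG15, RTP4 and MX1 in T135 replicate 1. KRTDAP and KRTAP12-2, 2 epithelial names given by the study for these arrays, were higher in all 3 T135 fetuses (8.14 to 8.89 against 6.77 to 7.37, and 7.40 to 8.32 against 6.53 to 6.88).

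**Figure D3:**
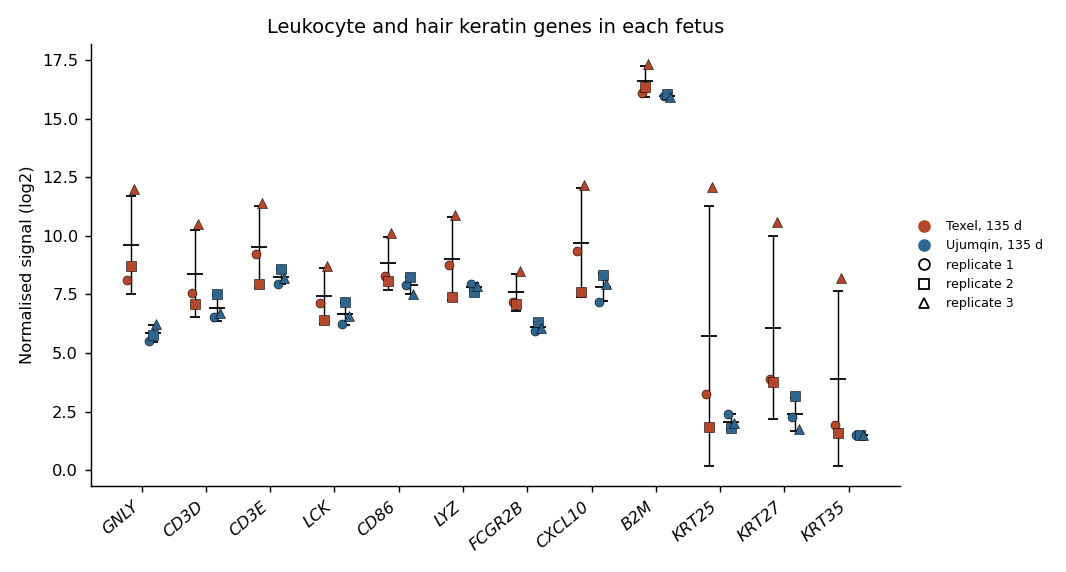
Normalised signal (log2, y axis) of leukocyte, antigen presentation and hair keratin genes in each fetus, drawn as in the plot of the interferon-stimulated genes (means and SD, n = 3). T135 replicate 3, the red triangle, is the highest point of every gene, and the hair keratins read 8.22 to 12.06 in it.

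Of the histocompatibility genes, 1 probe was called. The class II gene named OVAR-DQB1 in the study tables read 12.97 and 15.44 in T135 replicates 2 and 3 and less in replicate 1, and in U135 it was above background in replicate 1 alone (11.78), which was above T135 replicate 1. The probe, named for another stage, passed the threshold upwards with a difference of 7.65 (adjusted p = 0.806) and kept its call in 2 of the 6 fits that left out 1 array. The listed class I gene of the files differed by 0.44 (adjusted p = 0.895).

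No annotated autosomal gene of the cell division list was called. Of the mitosis and cell cycle list 11 genes were tested and none passed (p under 0.05 alone: 0), with a median of -0.18 and 9 of 11 differences below 0. The breeds did not overlap for 3 of them, CCND2 and CDKN1B, higher in T135 by 0.42 and 0.47, and CCNA2, lower. Over all annotated autosomal genes 5.92% did not overlap upwards and 6.07% downwards. CDK1, the kinase that drives entry into mitosis, read 7.61, 7.18 and 8.67 in T135 and 8.85, 8.44 and 8.99 in U135 (adjusted p = 0.806). CCNA2, its cyclin A partner, read 7.34 to 8.86 against 8.87 to 9.12 (adjusted p = 0.806). PCNA, CDK2 and AURKA differed by -0.20, -0.14 and -0.24. A further 5 genes of the same list were named by the study for these arrays, so their differences are a description: KIAA0101, a PCNA-binding protein, was 2.28-fold lower in T135, KIF15 2.23-fold, TPX2 2.07-fold, AURKB 2.07-fold and CDCA3 2.06-fold, all without overlap. TPX2, a spindle assembly factor, read 7.79 to 8.33 in T135 and 8.96 to 9.38 in U135, and CDCA3 8.07 to 8.33 against 8.99 to 9.48. Without T135 replicate 3, in which CDK1 and CCNA2 were the highest of the 3, 2 of the 11 listed genes passed downwards, at a list median of -0.067. In that fit 17 of all 676 annotated autosomal genes passed downwards.

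Few annotated regulators of myogenesis came near the threshold. Of 24 annotated autosomal genes tested none passed (p under 0.05 alone: 2, both lower in T135), and the median was 0.03. A further 3 probes of the list, outside this count, were named by the study for their difference on these arrays, where 54 of 55 such names passed. MYOD1 and MYOG, which commit and differentiate myoblasts, read 14.29 to 15.04 and 9.62 to 10.25 in T135 and 13.99 to 14.91 and 9.62 to 10.31 in U135. MYF5, expressed in myoblasts and satellite cells, was 9.11 to 9.65 against 8.72 to 9.16 (difference 0.38, adjusted p = 0.858). IGF2, a fetal growth factor, differed by -0.06. The members that passed p under 0.05 alone were IGFBP5, a binding protein of insulin-like growth factors, at 9.61, 9.54 and 8.60 against 9.99 to 10.33, and IGF1 at 9.64 to 9.97 against 10.13 to 10.53. Neither reached a 2-fold difference. FST, the activin antagonist follistatin, differed by 0.06.

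Some muscle-expressed transcripts were lower in T135. MB, myoglobin, the oxygen store of oxidative fibres, was the only annotated autosomal gene of the slow and developmental list, where p under 0.05 alone was met by its representative probe. Its 2 probes shared 59 of 60 bases and fell on both sides of the 2-fold line: one read 14.53, 14.38 and 14.45 in T135 and 14.86, 16.06 and 15.70 in U135 (2.13-fold, adjusted p = 0.678), and the other differed by -0.86. ANKRD1 and H19 were named by the study for these arrays. ANKRD1, a stretch-responsive ankyrin repeat protein of the sarcomere, read 12.23, 13.63 and 13.50 in T135 and 15.21, 15.42 and 15.69 in U135, a 5.00-fold difference. H19, the imprinted non-coding RNA next to IGF2, read 13.38, 12.40 and 12.84 against 14.53, 13.84 and 14.26. The fast sarcomere list (4 genes) gave no call, with differences between -0.25 and 0.05, and the mitochondrial energy list (6 genes) gave none, with a median of -0.04. The p under 0.05 alone was met by no gene of either list.

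**Figure D4:**
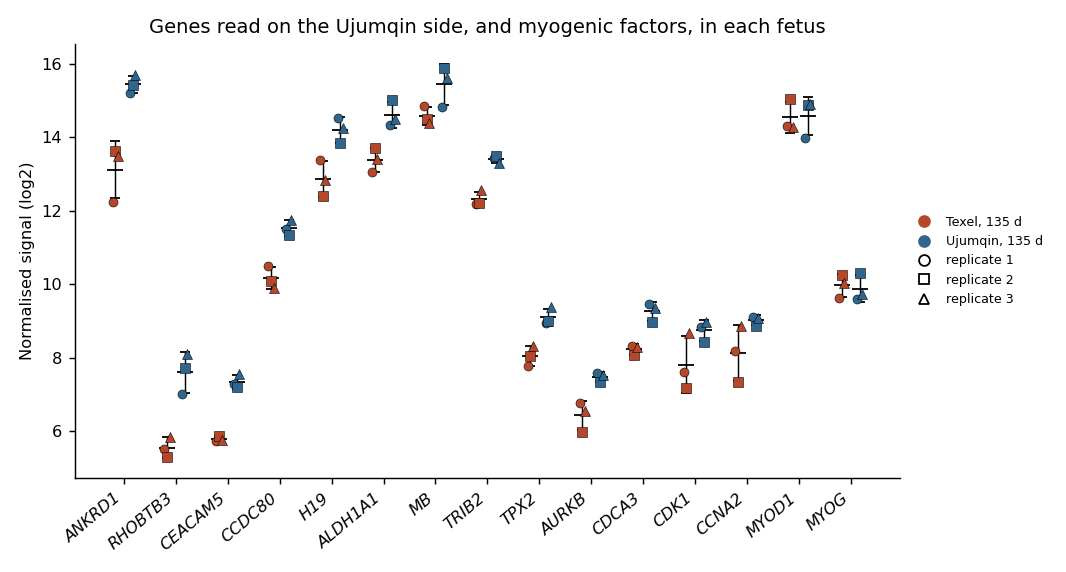
Normalised signal (log2, y axis) in each fetus of genes that were lower in T135 or that belong to the cell cycle, and of the myogenic factors MYOD1 and MYOG, drawn as in the plot of the interferon-stimulated genes (means and SD, n = 3). MYOD1 and MYOG overlap between the breeds, while ANKRD1, RHOBTB3, CEACAM5 and CCDC80 do not.

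Among lipid and metabolic genes the calls were few and mostly lower in T135. The adipose and lipid list had 2 of 17 genes past the threshold, both downwards, with a median of -0.04. Over all annotated autosomal genes 1.18% passed downwards. ALDH1A1, which oxidises retinal to retinoic acid, read 13.06, 13.71 and 13.42 in T135 and 14.33, 15.01 and 14.49 in U135, a 2.32-fold difference without overlap that was also in the study table of these arrays. SQLE, squalene epoxidase of cholesterol synthesis, read 10.64, 11.10 and 11.61 against 12.04, 11.46 and 12.86 and kept its call in 2 of the 6 fits that left out 1 array (-0.76 without T135 replicate 1). PPARG, LPL and LEP, genes of fat cells, differed by -0.22, 0.10 and -0.14. Of names from the study tables, DGAT2, the last enzyme of triglyceride synthesis, and LSS, lanosterol synthase, both named for another stage, were 4.62-fold and 2.43-fold lower. PLA2G5, a secreted phospholipase, read 3.92 to 4.75 in T135, where no array was above background, and 5.22 to 6.58 in U135. APOC2, the activator of lipoprotein lipase, was higher in T135 (13.97, 14.25 and 12.84 against 12.44, 11.90 and 11.67). The text of the study gives the opposite direction for APOC2 at this stage, upregulated in U135.

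The fructose transporter SLC2A5 gave different answers on its 2 probes. A_70_P051037 read 1.47, 3.63 and 2.03 in T135 and 5.16, 5.03 and 6.20 in U135. It was above background on no T135 array and on all U135 arrays, and was at least 2.96-fold lower in T135 (adjusted p = 0.425). A_70_P051036, which begins with the last 20 bases of the former, was above background on all 6 arrays and differed by -0.40 (adjusted p = 0.906). Of the glycolysis and glycogen list no gene of 7 passed (p under 0.05 alone: 1, SLC2A3, at 0.54). SLC37A1, a glucose-6-phosphate exchanger named by the study for these arrays, read 4.75 to 5.58 in T135 and 3.69 to 4.29 in U135, where no array was above background. In the detoxifying and redox list 1 of 5 genes passed, ALDH1A1 again, against 1.18% of all annotated autosomal genes called lower. GSTA1, a glutathione transferase, was higher on both probes (0.88 and 1.17), and the brighter probe did not reach a 2-fold difference.

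The other lists gave no call in the annotated autosomal genes counted here. These lists were extracellular matrix (7 genes, median -0.12), endothelial and vascular (12 genes, -0.01), erythroid (3 genes, 0.03), heat shock and stress (8 genes, 0.03), glucocorticoid and thyroid axis (16 genes, -0.14) and ribosomal protein and translation factor (11 genes, 0.05). Across the counted genes of these 6 lists p under 0.05 alone was met by 1, the prostaglandin receptor PTGFR (0.81). Outside these counts, the study named 1 probe for these arrays in each of the matrix, heat shock and ribosomal protein lists. Such names were chosen on these same arrays, where 54 of 55 passed the threshold. HSPA6, an inducible heat shock protein named by the study for these arrays, was 3.00-fold higher in T135 (7.12 to 7.81 against 5.65 to 6.12). No nerve or Schwann cell gene of the list fixed for them had a name in the files.

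Further annotated autosomal genes past the threshold belonged to no list. Higher in T135 were TFAP2A, a transcription factor of ectoderm and neural crest (6.97, 5.93 and 6.54 against 5.93, 4.73 and 4.42), ARG2, the mitochondrial arginase, and RAB28, which was above background on no array. Lower were TERT, the catalytic subunit of telomerase (6.08, 4.46 and 2.34 against 8.39, 6.21 and 7.11), and PMCH, the precursor of melanin-concentrating hormone (5.70 to 6.77 against 7.12 to 7.50). A second TERT probe, sharing 58 bases with the first, differed by -0.19. An ACTB probe that was above background on 2 U135 arrays alone was at least 2.05-fold lower. CHIA and IFN1 were called lower but were above background on no array. In the 6 fits that left out 1 array the call was kept in 1 for ARG2, 2 for CHIA, 3 for the brighter TFAP2A probe, 4 for PMCH, and 5 for TERT and ACTB. Of the 23 genes with more than 1 probe and a call on any of them, 5 were called on all their probes: RTP4, CLEC4E, MCP-3, TFAP2A and TNFSF13B. Their probes shared 59 bases for RTP4 and CLEC4E, 40 for TFAP2A and 20 for TNFSF13B, so only the MCP-3 probes did not overlap.

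The study's own table of 135 d names 55 probes, of which 54 passed the threshold here, as their choice on these arrays fixes. Beside those already given, the names higher in T135 were SFT2D1 (8.93, 9.31 and 9.86 against 7.29 to 7.56), EIF2S2, TBRG1, DEK, NDRG1, RUNDC3B, TMEM59 and CYFIP2. The names lower in T135 were RHOBTB3 (5.29 to 5.86 against 7.01 to 8.11), CEACAM5, RPP30, CCDC80, MAOB, RAB22A, PIGR, INTS9, MIIP, TP53I11, TPPP3, ZBTB8OS, TBC1D5, WDFY2, TRIB2, PELI1, PTPRN2, KIF5B and TAGLN2, with differences from -2.05 for RHOBTB3 to -0.98 for TAGLN2, which alone missed the 2-fold limit. A further 255 probes bear a name only for another stage, and 17 of them (6.67%) passed here, against 2.1% of all probes tested.

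The 4 probes that passed the adjusted threshold were all higher in T135, and none has a gene name in the files. A_70_P057056, which the study table of 135 d lists without a gene, read 10.69, 10.83 and 10.60 in T135 and 6.74, 6.44 and 6.92 in U135, a 16.1-fold difference (4.01 ± 0.19, adjusted p = 0.00361) on arrays that were all above background. Over the alternatives its difference stayed between 3.03 and 4.18, with adjusted p from 0.000953 to 0.816. The other 3 rested on dim spots: A_70_P037851 read 4.24 to 4.47 in T135 and 1.30 to 1.35 in U135, A_70_P015261 4.02 to 4.36 against 1.52 to 1.61, and A_70_P036681 3.48 to 4.01 against 1.46 to 1.53. No U135 array was above background for any of them. A_70_P037851 was at least 1.77-fold higher with 2 T135 arrays above background, A_70_P015261 at least 1.58-fold with 1, and A_70_P036681 had none. No other probe of the array shared a run of 20 bases with any of the 4, on either strand. With a floor of 16 under the signal A_70_P057056 alone passed.

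The breed difference of several genes was set against the other 4 stages, 70, 85, 100 and 120 d, in 1 fit over the 31 fetal arrays in 10 groups. In that fit 16 of 14385 probes (0.111%) passed the adjusted threshold at 135 d, among them EIF2S2, SFT2D1, CEACAM5 and CCDC80 and no annotated autosomal gene. The EST probe A_70_P057056 did not pass in it (adjusted p = 0.118). Its difference changed sign over the stages, at -0.84, -0.77, 2.57, 1.28 and 4.01 from 70 to 135 d. Its Texel fetuses read 7.10 to 10.55 at 85 d and 6.58 to 11.78 at 120 d. EIF2S2, the beta subunit of translation initiation factor 2, was higher in Texel at every stage, by 1.04, 1.13, 1.97, 1.75 and 1.81 from 70 to 135 d. RHOBTB3 had the lower mean in Texel at every stage, with differences of -2.36, -2.58, -0.69, -1.69 and -2.05. At 100 d the breeds overlapped, at 5.59 to 6.14 in Texel and 5.40 to 8.24 in Ujumqin. ISG15 differed by 0.32, 1.17, 2.22, 2.01 and 2.08, and RTP4 by 0.11, 0.11, 2.06, 2.06 and 2.06. The spread between Texel fetuses was wide at 100 and 120 d for ISG15 (SD 1.94 and 1.73) and narrower at 135 d (0.68). In Ujumqin the SD of ISG15 was 0.15, 2.50 and 0.51 at these stages. The highest Ujumqin fetus of 120 d read 14.09 for ISG15, 12.18 for RTP4, 14.56 for MX1 and 11.71 for MX2, each above every T135 fetus. Since the 10 groups share 1 estimate of the spread, the 4 interferon-stimulated genes had adjusted p from 0.434 to 0.628 at 135 d in that fit, and 2 of the 4 passed the unadjusted threshold.

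The contrast of the breed difference at 135 d with its mean over the other stages passed the adjusted threshold at 12 of 14385 probes (0.0834%), 4 of which were also called at 135 d. CEACAM5, named after a cell adhesion molecule, differed by 0.18, -0.48, -0.35, -0.68 and -1.54 from 70 to 135 d, so that the contrast was -1.21 (adjusted p = 0.0470). It rose in Ujumqin to 7.34 at 135 d and read 5.81 in Texel. TMOD4 and ACTN3, sarcomere genes, and EEF1A2, a translation elongation factor of muscle and nerve, were named for other stages and gave contrasts of -1.33, -1.70 and -1.87 with differences at 135 d of -0.31, -0.44 and -0.03. No annotated autosomal gene passed. Among those with the smallest p were SLCO2A1, TERT, CD1D and IFN1 below and TFAP2A, TTR, BARX2, GGTA1 and ATP7B above, with adjusted p from 0.159 to 0.377. None of the interferon-stimulated genes differed from the other stages in this contrast (ISG15 0.65, adjusted p = 0.895).

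**Figure D5:**
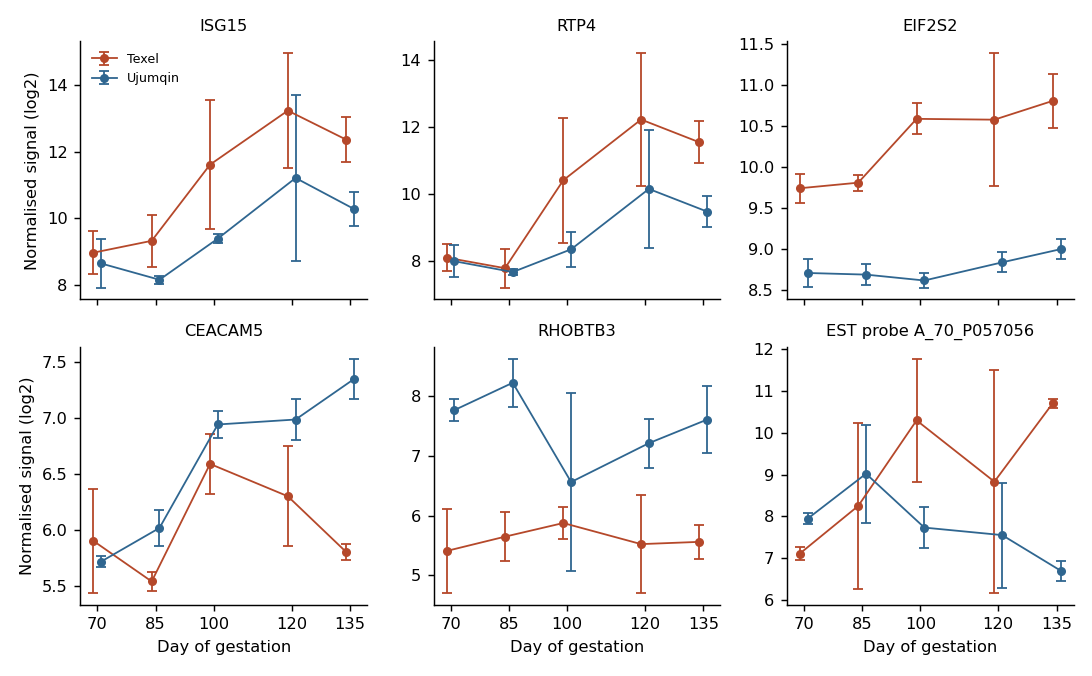
Mean normalised signal (log2, y axis) of 5 named genes and 1 EST probe in Texel (red) and Ujumqin (blue) fetuses by day of gestation (x axis), with error bars of SD (n = 3, and 4 for Texel at 100 d) and points of the breeds set 1 d to either side. EIF2S2 is higher in Texel at all 5 stages, and the CEACAM5 means of the breeds lie farthest apart at 135 d.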

How the data were processed

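Intensity: the deposited scanner files hold each spot's processed, mean and background signal intensity, made by the authors with Agilent Feature Extraction 10.5 (per the labels) from 1-colour hybridisations. The authors also deposited a table of normalised log2 values, used as an alternative. Non-outlier spots of a probe were averaged, quantile-normalised over 31 fetal arrays, floored at 1 and taken to log2. The 14385 of 15008 probes well above background on at least 1 fetal array were tested with limma 3.58.1 (R 4.3.3) on the 6 arrays of 135 d, with Benjamini-Hochberg adjustment over all of them. The methods of the study used a t-test without moderation, tried as an alternative. The script was tested on simulated data.

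Gene names came from the scanner files. Chromosomes came from NCBI's table for ARS-UI_Ramb_v3.0, to which 1194 of 1605 named probes matched. The 245 tested genes without a match, and 24 X-linked genes, were left out. No genome coordinates of the probes were used. A gene was represented by its brightest probe. Where no array of the dimmer breed was above background, a fold is a lower bound: the brighter breed's mean against, per array of the dimmer breed, the higher of the probe's signal and the lowest signal above background. Precision is limited by having 3 arrays a breed.

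The members and lists were chosen with earlier results of these data known. Named were the probes past the adjusted threshold, up to 15 called genes without overlap per direction, called list members and up to 4 others of a described list, the genes of the study's 135 d table, and the 5 leading genes per direction against other stages. Some genes that this rule could name are not reported here. Further genes were named after their values were seen. Replicate numbers did not pair the fetuses. The p-values measure the spread between these fetuses.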

Additional observations from a re-analysis of the deposited data

Results flagged for a closer look

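A total of 4 probes called at 135 d had a breed difference that differed from the mean of the other 4 stages in the fit over 10 groups. CEACAM5 (A_70_P056871) gave a contrast of -1.21 and was above background on all 6 arrays of 135 d. EPCAM (A_70_P024811), an epithelial adhesion molecule named for another stage, gave 3.17: it was above background on all Ujumqin arrays at 85, 100 and 120 d, on all Texel arrays at 100 d and on no array of either breed at 135 d. The EST probe A_70_P025641 gave -2.22, with 1 U135 array and no T135 array above background. The EST probe A_70_P050871 gave 1.84, with none of the 6 arrays above background. No EPCAM or EST level at 135 d can therefore be ordered between breeds. With slide as a block none of the 12 contrasts past the threshold remained. Groups of 3 fetuses were too small for a search for single outlying samples.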

How the results depend on the processing

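The count of 302 probes past p under 0.05 and 2-fold was 80 with normexp background correction, 141 with a floor of 16, 108 with the Welch test of the methods (596 at p under 0.05 alone), 45 with the study's further clause of adjusted p under 0.4, 466 with slide as a block over 31 arrays and 531 in females only, and 284 to 419 with each array left out in turn. Females only and sex as a covariate over the 6 arrays shifted the share of calls higher in T135 to 42.2% and 42.5%, from 51.3%, and leaving out T135 replicate 3 to 42.2%. The count of 4 at adjusted p under 0.05 was 2 with scaling to the 75th percentile or with quantiles over the 6 arrays, 1 with normexp, with a floor of 16, with a mean-variance trend or with a filter on all arrays of a breed, 0 with the Welch test, with sex as a covariate over 6 arrays, in females only or with the replicate block, 16 over 10 groups and 23 with slide as a block over 31 arrays, and 0 to 10 with each array left out (10 without T135 replicate 2, 0 without U135 replicate 1, 1 without U135 replicate 2). The 20 annotated autosomal genes were 6, 13, 11 and 8 with normexp, the filter on all arrays of a breed, the floor of 16 and the Welch test, 32 with sex as a covariate over 6 arrays or the probe of smallest p, 36 in females only or with slide as a block over 31 arrays, 3 with the clause of adjusted p under 0.4, and 20 to 35 with each array left out (35 without T135 replicate 2, 32 without T135 replicate 3). The replicate block, which pairs fetuses by number although same-numbered fetuses correlated at -0.0066, -0.0053 and 0.030, gave 333 probes past the unadjusted threshold and 22 genes.

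The median of the interferon-stimulated list stayed between 1.51 and 2.02, and all 4 genes passed in 16 of 23 alternatives. It was 2 of 4 over 10 groups or with sex as a covariate over 31 arrays, 3 in females only, with sex as a covariate over 6 arrays or without T135 replicate 1, and 0 with slide as a block over 31 arrays. The lymphocyte median reversed to -0.25 in females only and with sex as a covariate over 6 arrays, as did the IFNG probe A_70_P039611 (-0.074), settings in which T135 replicate 2 is the only Texel fetus compared with the Ujumqin females. The 12 probes whose breed difference at 135 d stood apart from the other stages became 6 with the 75th percentile or with sex as a covariate, 5 with the replicate block, 0 with slide as a block, and 1 to 10 with each array left out, settings chosen after seeing the data. The sex contrast kept 8 probes. Of 1920 values of 84 named probes under the alternatives, 253 lost the call, 12 gained it and 2 reversed. The planned share of promoters with a motif was not run. Signal over background limits the calls: 55 of 302 were above background on no array.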
